A study of Mus musculus with 9 samples.

Results

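Genes of the brush border, the microvillus-covered surface with which absorptive enterocytes digest and take up food, were followed through a table of 24930 gene symbols from mouse crypt epithelium. The 41 genes were taken by symbol, and all 41 were in the table. They were 4 disaccharidases, 10 peptidases, a phosphatase and an enteropeptidase, 3 sugar transporters, 8 peptide and amino acid transporters, 3 ion and anion exchangers, 4 nucleoside, folate and iron transporters, and 7 genes of microvillus structure. The study asked how crypt cells change after 1 copy of Ctnnb1, which encodes β-catenin, is switched to a gain-of-function mutant form, and sequenced poly(A) RNA 8, 9 and 10 days after induction.

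Each of 3 groups had 1 library per day. Mutant set B is titled as heterozygous for Cdx2 and for the β-catenin allele, while its library names carry EXON3 alone. Mutant set A is titled as heterozygous for the β-catenin allele, while its library names carry CDX2HET and EXON3. Control libraries have neither allele in their names, and whether they received the inducing agent is not said. Titles and library names thus differ on where the Cdx2 allele is, and the neutral names B and A are kept. The labels give no Cre driver, age or sex, and do not say that the libraries came from separate animals. In the main fit each p-value reflects how libraries of 3 different days vary within a group. That spread mixes day with any other difference between libraries, and how much of it is technical or lies between animals is not known. In bulk RNA, fewer enterocytes and less RNA of a gene per enterocyte cannot be told apart.

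Enterocytes arise from dividing cells in the crypt and raise their digestive enzymes and transporters as they move onto the villus, so a crypt preparation holds fewer fully mature cells than the villus does. The hydrolases are anchored in the apical membrane, where disaccharidases split sugars and peptidases split short peptides, and neighbouring transporters carry the products into the cell. CDX2, HNF4A and GATA4 are transcription factors known to act on many of these genes.

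Values are FPKM, fragments per kilobase of transcript scaled to library size, and differences are log2 values of FPKM + 1 with their standard errors, so that folds of low genes are understated. All 41 genes passed the filter of at least 1 FPKM in at least 3 libraries, as 12097 genes did. Summed FPKM per library ran from 624923 to 755802, and 1 FPKM stood for an estimated 16.8 to 19.1 fragments per kilobase of transcript. This estimate took the commonest small values among 1800 genes with a single transcript as 1 fragment. Its transcript lengths may differ from those of the submitters. The set B day-9 library stood apart from the other 5 mutant libraries. On the first principal component, with 43.5% of the variance, it lay at −19.1, the other mutants at 2.57 to 30 and the controls at −22.7 to −21.6. It alone had the expression pattern of a male, with Xist at 0.1 FPKM against 27.0 to 39.4 FPKM in the other libraries. For many results the value without it is given too, a choice that rests on these same data.

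The 3 enterocyte markers Lct, Sis and Alpi were above 1 FPKM in every library, with means over all 9 libraries of 41.8, 133 and 750 FPKM. Anpep, which encodes aminopeptidase N, had the highest mean of the 41 genes at 762 FPKM, rank 143 of the 12097 genes. Mep1a, the α subunit of the metallopeptidase meprin, was the lowest and stood at rank 8490. Lct varied most, with a highest library 53.4 times its lowest, followed by Mep1a at 10.4 times and the glucose transporter gene Slc2a2 at 8.55 times. Ush1c, which encodes the scaffold harmonin, varied least at 1.24 times.

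The bases just upstream of 4 genes are shown because Lct, Sis and Alpi define the cell type and Slc9a3 rose in some of the fits given further on. They are from RefSeq on the build GRCm38.p6, another build than the mm9 named by the submitters. Each run is 250 bases long, 5′ to 3′ on the strand of the gene, and ends at the base before the annotated start. Capitals mark matches to 3 motifs searched on both strands: TTTATNG for CDX, CAAAGTNCA for HNF4 and AGATAA for GATA factors.
Lct (chr1:128328319-128328568, minus strand): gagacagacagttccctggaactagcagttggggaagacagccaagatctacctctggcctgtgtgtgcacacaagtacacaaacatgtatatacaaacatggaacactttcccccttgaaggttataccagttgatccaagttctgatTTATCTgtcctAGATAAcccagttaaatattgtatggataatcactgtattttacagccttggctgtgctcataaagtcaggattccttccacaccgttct
Sis (chr3:72967864-72968113, minus strand): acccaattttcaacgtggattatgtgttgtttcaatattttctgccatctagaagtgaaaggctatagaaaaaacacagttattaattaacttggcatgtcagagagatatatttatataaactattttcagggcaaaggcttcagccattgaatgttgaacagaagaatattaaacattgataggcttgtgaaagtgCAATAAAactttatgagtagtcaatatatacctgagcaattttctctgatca
Alpi (chr1:87101607-87101856, minus strand): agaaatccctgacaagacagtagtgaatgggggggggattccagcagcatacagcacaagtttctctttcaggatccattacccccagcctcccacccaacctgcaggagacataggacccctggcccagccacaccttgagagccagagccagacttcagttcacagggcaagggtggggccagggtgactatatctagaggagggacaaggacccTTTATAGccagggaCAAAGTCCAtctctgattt
Slc9a3 (chr13:74121163-74121412, plus strand): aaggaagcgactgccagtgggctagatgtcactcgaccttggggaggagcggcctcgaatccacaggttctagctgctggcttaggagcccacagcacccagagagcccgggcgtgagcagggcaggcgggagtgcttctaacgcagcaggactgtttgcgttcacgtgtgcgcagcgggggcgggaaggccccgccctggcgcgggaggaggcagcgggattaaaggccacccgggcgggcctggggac
The Lct window held a pair of GATA matches, on opposite strands, starting 101 and 90 bases before the start. The Sis window held a CDX match at 52 bases before the start. The Alpi window held a CDX match at 33 and an HNF4 match at 19 bases before the start. No match lay in the Slc9a3 window, and none of the matches shown overlap. Windows of 300 bases, with 50 after the start, were searched for 37 of the 41 genes and for 32851 starts in all. The CDX motif was in a window of 9 of the 37 genes and in 10.9% of all windows, and the HNF4 motif in 3 genes and 1.41% of windows. The GATA motif was in 8 of the 37 genes and in 11.2% of all windows. Some genes have several windows and so more chances of a match, and a match is only a run of letters. Sites that differ from these letters were not searched for.

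The 41 genes had differences in both directions in the mutants, and no test of them as a set was run. Their summed FPKM was 4059, 6656 and 5565 at days 8, 9 and 10 of set B, 3853, 5201 and 5537 in set A, and 6988, 3567 and 4832 in control, so the control libraries held both the highest and the lowest sum. Of 41 genes, 0 passed an adjusted p of 0.05 in limma for both sets against control, where 1.16% of all genes tested passed. An unadjusted p under 0.05 was reached by 4 of the 41 (9.76%), against 21.0% of all genes. The 4 were Lct and Slc7a8, both lower in the mutants, and Slc9a3 and Slc40a1, both higher. The median log2 difference of the 41 was −0.13, with 18 positive and 23 negative, beside a median of 0.0 over all genes. That median depended on single control libraries: it was 0.15 without the day-8 control and −0.38 without the day-9 control.

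**Figure D1:**
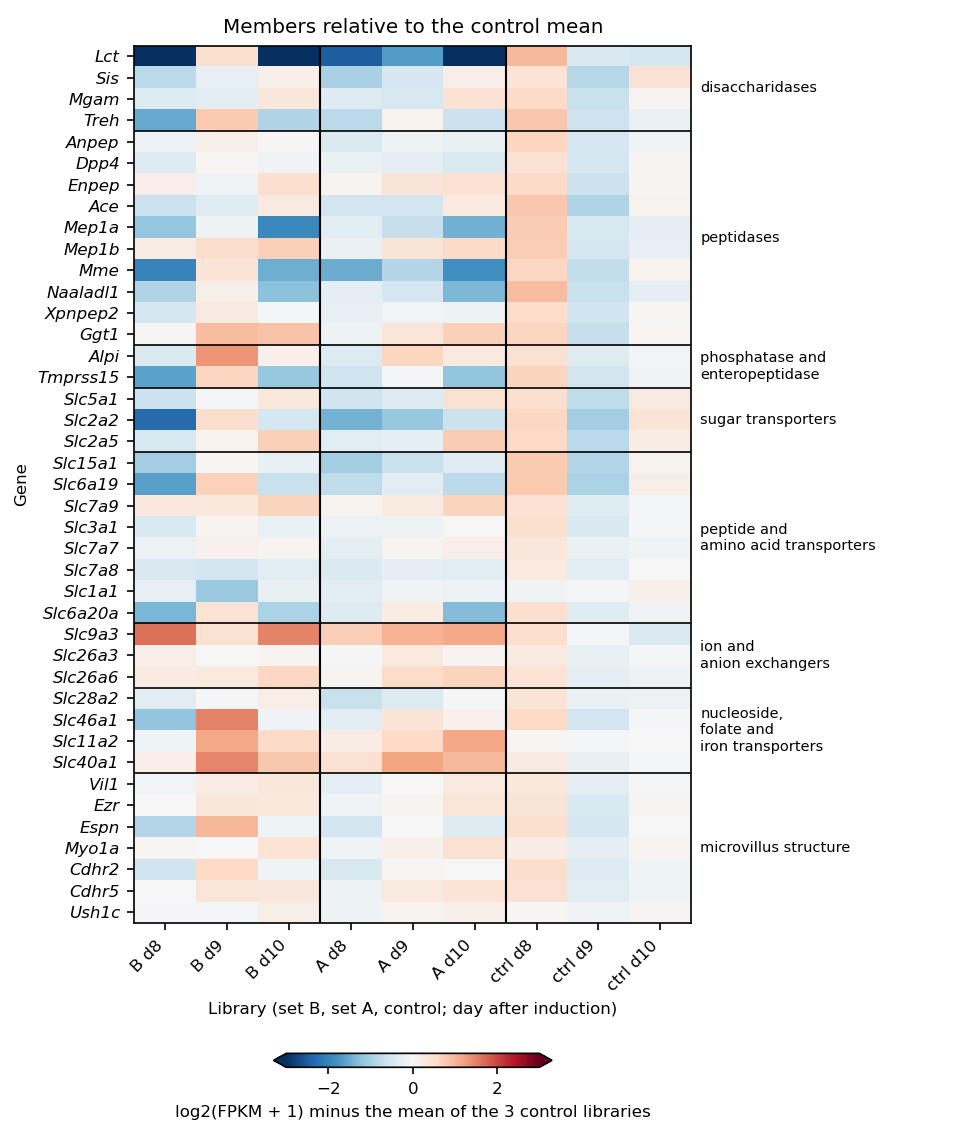
Values of the 41 genes in each library as log2(FPKM + 1) minus the mean of the 3 control libraries, with libraries in columns (set B, set A, control, each at days 8, 9 and 10) and genes grouped by role. Red is above and blue below the control mean, and colours saturate at the ends of the scale, which the 3 darkest Lct cells (−4.3 to −4.08) exceed. Lct is dark blue in 4 mutant libraries and pale red in the set B day-9 library, and the day-8 control column is red and the day-9 control column blue for most genes.

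Without the set B day-9 library, 3 of the 41 genes passed, where 8.29% of all genes did: Lct and Mme fell and Slc9a3 rose. The other 5 mutants lay outside the control range for these 3 genes and for no other of the 41, while 20.2% of all genes had such separate ranges. This fit was singled out because that library's values lay apart, those of Lct and Mme among them, so its adjusted p-values are not independent of that choice. Leaving out any other single library gave 0 of the 41 for both sets against control. With the set B day-9 library kept in, 0 of the 41 had separate ranges, against 12.6% of all genes. It was the highest of the 6 mutants for 20 of the 41 genes, against 21.7% of all genes. It lay within the control range for 32 of the 41, a count whose share over all genes was not computed. With libraries weighted by their fit in limma, 2 of the 41 passed, where 11.9% of all genes did: Lct fell by 3.03 (adjusted p = 0.0395) and Slc9a3 rose by 1.31 (adjusted p = 0.017).

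Lct encodes lactase, the enzyme for milk sugar, which is high before weaning. Its level in set B was 3.18, 98.1 and 3.10 FPKM at days 8, 9 and 10. In set A it was 11.6, 21.1 and 2.58 FPKM, and in control 138, 50.3 and 48.1 FPKM. The set B day-9 library was the one mutant library inside the control range, and the other 5 all lay below every control. The mutants averaged 23.3 ± 37.4 FPKM (SD, n = 6) and the controls 78.8 ± 51.3 FPKM (SD, n = 3), a log2 difference of −2.69 ± 1.10 that did not pass (limma, adjusted p = 0.215). Without the set B day-9 library the mutants averaged 8.33 ± 8.09 FPKM (SD, n = 5) and Lct fell by 3.45 ± 0.63 on the log2 scale (limma, adjusted p = 0.0277), to 0.0913 of control on that scale.

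The other disaccharidases did not pass in either fit. Sis, the gene for sucrase-isomaltase, which rises at weaning, was at 83.9, 124 and 165 FPKM in set B, 75.3, 104 and 168 FPKM in set A, and 198, 81.1 and 201 FPKM in control. The 3 groups overlapped, with 1 mutant library below the lowest control, and the log2 difference was −0.36 ± 0.38 (limma, adjusted p = 0.62). As a ratio to Sis, Lct was 0.0379, 0.789 and 0.0188 in set B, 0.155, 0.204 and 0.0154 in set A, and 0.697, 0.621 and 0.239 in control. The 5 mutants other than the set B day-9 library had ratios below every control. Mgam, the maltase-glucoamylase gene and the highest of the 4, was at 162 to 307 FPKM over the mutants and 143 to 336 FPKM in control (log2 −0.14 ± 0.32, limma, adjusted p = 0.839), and its difference turned to 0.15 without the day-8 control. Treh, the trehalase gene, had a log2 difference of −0.50 ± 0.53 (limma, adjusted p = 0.625), with its highest mutant value of 109 FPKM again in the set B day-9 library, and −0.83 ± 0.37 without it (limma, adjusted p = 0.206). The disaccharidases had 0 positive and 4 negative differences, with a median of −0.43, or −0.6 without the set B day-9 library.

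**Figure D2:**
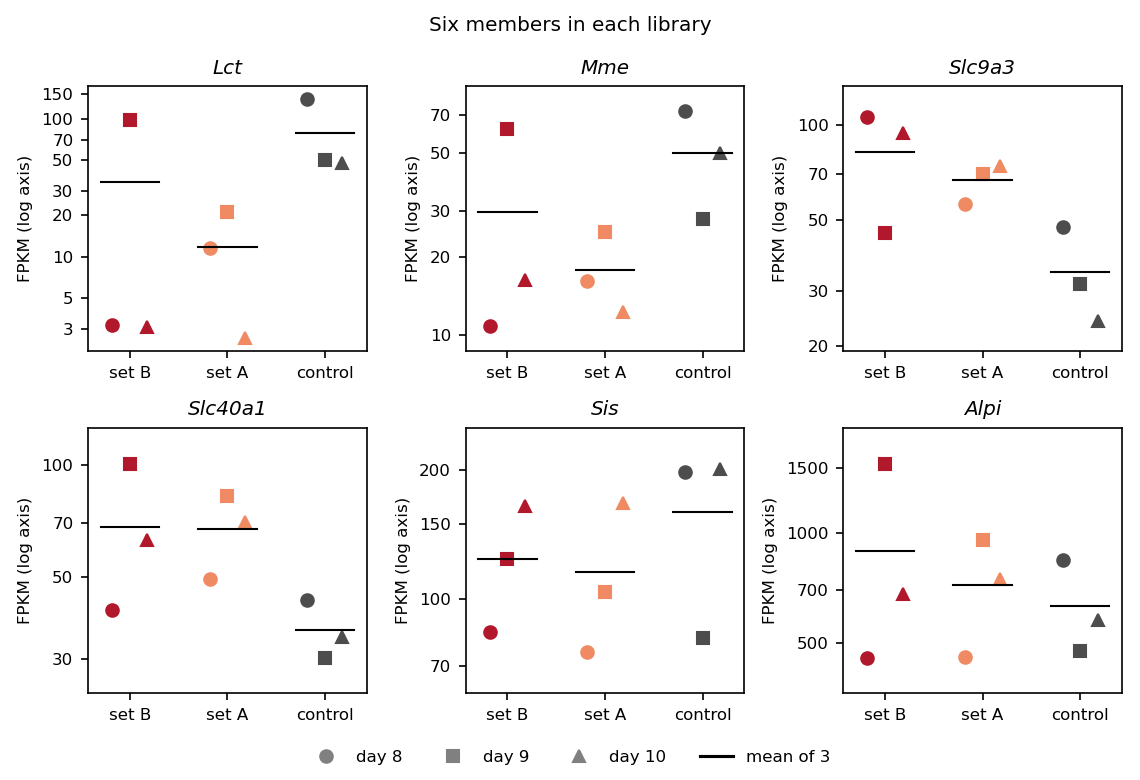
FPKM of Lct, Mme, Slc9a3, Slc40a1, Sis and Alpi in each library on log axes, by group (set B, set A, control), with marker shapes for days 8, 9 and 10 and a bar for the arithmetic mean of 3 libraries. The square for day 9 of set B sits at 98.1 FPKM for Lct, 61.7 FPKM for Mme and 45.6 FPKM for Slc9a3, inside the control range for each, while the other 5 mutants lie outside it for these 3 genes.

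Among the peptidases Mme differed most. It encodes neprilysin, a membrane metallopeptidase that cleaves peptide hormones. Mme was at 10.8, 61.7 and 16.2 FPKM in set B, 16.1, 24.9 and 12.2 FPKM in set A, and 72.5, 27.8 and 50.1 FPKM in control. As for Lct, every mutant except the set B day-9 library lay below all controls. The log2 difference was −1.21 ± 0.54 with all libraries (limma, adjusted p = 0.248), and Mme fell by 1.57 ± 0.35 without that library (limma, adjusted p = 0.0443). In that fit the means were 16.0 ± 5.47 FPKM (SD, n = 5) in those mutants and 50.1 ± 22.4 FPKM (SD, n = 3) in control.

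Anpep was the most abundant of the peptidase genes. It was at 698, 888 and 810 FPKM in set B, 585, 704 and 671 FPKM in set A, and 1236, 552 and 718 FPKM in control. All 6 mutants lay between the lowest and the highest control, and the log2 difference was −0.13 ± 0.23 (limma, adjusted p = 0.778), or 0.19 without the day-8 control. The subunits of meprin differed in sign: Mep1a had −0.95 ± 0.44 (limma, adjusted p = 0.268) and Mep1b, the β subunit, had 0.37 ± 0.29 (limma, adjusted p = 0.509), and the difference between the 2 genes was not tested. The remaining peptidase genes were Dpp4, for dipeptidyl peptidase 4, which removes N-terminal dipeptides, Enpep, for glutamyl aminopeptidase, Ace, for angiotensin-converting enzyme, Naaladl1 and Xpnpep2, for further peptidases, and Ggt1, for a γ-glutamyltransferase. Their log2 differences ran from −0.68 for Naaladl1 to 0.46 for Ggt1, and none passed. In all, 3 of the 10 peptidases were positive and 7 negative, with a median of −0.18.

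Alpi encodes intestinal alkaline phosphatase, which can detoxify bacterial lipopolysaccharide and marks mature enterocytes. Its level was 457, 1542 and 683 FPKM in set B, 460, 958 and 748 FPKM in set A, and 843, 476 and 580 FPKM in control. Day 8 was the lowest day in both mutant sets and the highest day in control, and the groups overlapped (log2 0.26 ± 0.40, limma, adjusted p = 0.752). Without the set B day-9 library the difference was 0.01 ± 0.30. Tmprss15 encodes enteropeptidase, which activates trypsinogen. It was at 2.68, 16.6 and 4.10 FPKM in set B, 6.39, 9.81 and 3.91 FPKM in set A, and 16.7, 6.67 and 9.39 FPKM in control. The difference of −0.66 ± 0.52 did not pass (limma, adjusted p = 0.507), nor did that of −1.0 ± 0.35 without the set B day-9 library (limma, adjusted p = 0.124).

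The sugar transporter genes did not pass in either fit. Slc5a1, the sodium-glucose cotransporter SGLT1 of the apical membrane, was at 138, 209 and 269 FPKM in set B, 141, 165 and 296 FPKM in set A, and 302, 126 and 261 FPKM in control. All mutants lay within the control range (log2 −0.15 ± 0.36, limma, adjusted p = 0.846), and the sign turned without the day-8 control (0.10). Slc2a2, the GLUT2 transporter that passes sugars to the blood side, was at 7.48, 59.1 and 28.2 FPKM in set B, 14.8, 18.1 and 25.9 FPKM in set A, and 63.9, 19.8 and 53.6 FPKM in control. Of its 6 mutant values 3 were below every control, and the log2 difference was −0.92 ± 0.61 (limma, adjusted p = 0.434), or −1.24 ± 0.52 without the set B day-9 library (limma, adjusted p = 0.184). Slc2a5, the fructose transporter GLUT5, had 0.08 ± 0.40 (limma, adjusted p = 0.929).

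Among the peptide and amino acid transporters, 2 of 8 were positive and 6 negative, with a median of −0.38, while without the set B day-9 library 1 was positive and the median was −0.29. Slc7a9, the light chain of the cystine transporter, had the highest level. It was at 99.6, 99.5 and 129 FPKM in set B, 86.7, 98.7 and 127 FPKM in set A, and 109, 61.6 and 76.4 FPKM in control, so the groups overlapped (log2 0.40 ± 0.19, limma, adjusted p = 0.282). Slc6a19, the neutral amino acid transporter B0AT1, was at 12.9, 69.1 and 26.0 FPKM in set B, 24.4, 33.5 and 24.0 FPKM in set A, and 73.2, 21.4 and 47.5 FPKM in control. One mutant, at day 8 of set B, lay below the controls, and the log2 difference was −0.58 ± 0.53 (limma, adjusted p = 0.564), or −0.89 ± 0.41 without the set B day-9 library (limma, adjusted p = 0.216). Slc7a8, a neutral amino acid exchanger of the basolateral membrane, was at 66.3, 61.1 and 71.7 FPKM in set B, 67.2, 76.0 and 73.6 FPKM in set A, and 113, 73.3 and 92.7 FPKM in control. All of set B lay below all controls, and set A overlapped control at its upper end. The log2 difference of both sets, −0.40 ± 0.13, had an unadjusted p of 0.0121 and did not pass over all genes (limma, adjusted p = 0.136). Slc15a1, the peptide transporter PEPT1, was at 16.4 to 35.6 FPKM over the mutants and 18.5 to 60.2 FPKM in control, and its log2 difference was −0.55 ± 0.38 (limma, adjusted p = 0.445). Slc3a1, the heavy chain that pairs with the Slc7a9 product, Slc7a7, a basolateral cationic amino acid exchanger, Slc1a1 and Slc6a20a, a proline transporter, had log2 differences from −0.56 to 0.01.

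The ion and anion exchangers had 3 positive differences, with a median of 0.41. Slc9a3 encodes NHE3, the apical sodium-proton exchanger through which the gut absorbs sodium. Slc9a3 was at 106, 45.6 and 94.2 FPKM in set B, 56.2, 69.7 and 74.3 FPKM in set A, and 47.7, 31.5 and 24.1 FPKM in control. Every mutant except the set B day-9 library lay above all controls. The mutants averaged 74.3 ± 22.6 FPKM (SD, n = 6) and the controls 34.4 ± 12.1 FPKM (SD, n = 3), a log2 difference of 1.09 ± 0.30 that did not pass (limma, adjusted p = 0.107). Without that library Slc9a3 rose by 1.27 ± 0.21 (limma, adjusted p = 0.022), to 2.41 times control on that scale. Slc26a6, an anion exchanger, was at 112, 117 and 147 FPKM in set B, 101, 138 and 151 FPKM in set A, and 126, 78.7 and 85.3 FPKM in control (log2 0.41 ± 0.18, limma, adjusted p = 0.247). Its ranges overlapped, as did those of Slc26a3, the chloride-bicarbonate exchanger, with 0.10 ± 0.12 (limma, adjusted p = 0.669).

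The iron transporter genes had positive differences that did not pass. Slc40a1, ferroportin, exports iron across the basolateral membrane. Its level was 40.8, 101 and 62.8 FPKM in set B, 49.3, 82.6 and 70.5 FPKM in set A, and 43.3, 30.3 and 34.5 FPKM in control. Set A lay above all controls, and set B did so except at day 8 (log2 0.84 ± 0.28, limma, adjusted p = 0.153). Slc11a2, the apical iron importer DMT1, was at 28.3, 69.2 and 46.5 FPKM in set B, 36.3, 47.6 and 70.9 FPKM in set A, and 31.8, 30.4 and 30.7 FPKM in control. Again the day-8 library of set B was the one mutant that was not above all controls (log2 0.60 ± 0.28, limma, adjusted p = 0.276). Slc46a1, the proton-coupled folate transporter, was at 23.6, 158 and 51.6 FPKM in set B, 44.1, 72.7 and 60.5 FPKM in set A, and 83.8, 36.8 and 54.2 FPKM in control. Its difference of 0.07 ± 0.54 (limma, adjusted p = 0.956) turned to −0.29 without the set B day-9 library. Slc28a2, a concentrative nucleoside transporter, had −0.22 ± 0.19 (limma, adjusted p = 0.551). The median of these 4 genes was 0.33 with all libraries and 0.11 without that one.

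Genes of microvillus structure had 5 positive and 2 negative differences, with a median of 0.07. Vil1, encoding the actin bundler villin, was at 359, 439 and 477 FPKM in set B, 307, 375 and 455 FPKM in set A, and 473, 310 and 369 FPKM in control. The groups overlapped throughout, with a log2 difference of 0.07 ± 0.17 (limma, adjusted p = 0.839) that turned to −0.07 without the day-9 control. Cdhr5, a cadherin of the links between microvilli, was at 296, 383 and 377 FPKM in set B, 268, 364 and 395 FPKM in set A, and 408, 237 and 270 FPKM in control, with all mutants inside the control range (log2 0.21 ± 0.19, limma, adjusted p = 0.568). The other 5 were Cdhr2, its partner cadherin, Ezr, the membrane-actin linker ezrin, Espn, the actin bundler espin, Myo1a, a brush border myosin, and Ush1c. Their differences lay between −0.16 and 0.16 with all libraries, and without the set B day-9 library Espn had −0.41 ± 0.27 and Cdhr2 −0.25 ± 0.24, neither of which passed. The 7 genes summed to 1456 ± 216 FPKM in the mutants (SD, n = 6) and 1363 ± 324 FPKM in control (SD, n = 3), while the 4 disaccharidases summed to 408 ± 111 FPKM in the mutants and 548 ± 234 FPKM in control.

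**Figure D3:**
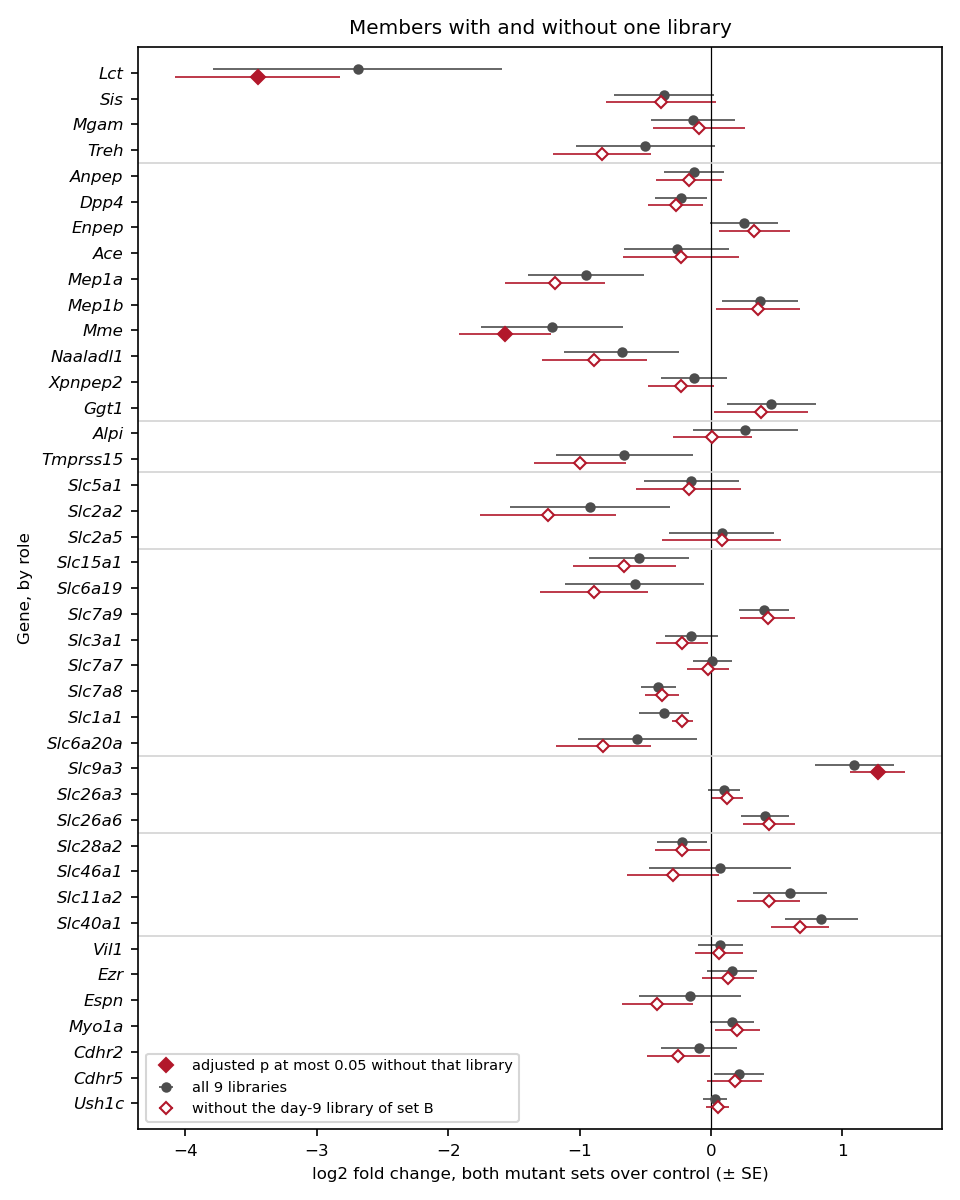
Log2 fold change of each of the 41 genes for both mutant sets over control with its standard error, from limma on log2(FPKM + 1), with all 9 libraries (grey circles) and without the set B day-9 library (diamonds, filled where the adjusted p was at most 0.05). Lct at −3.45, Mme at −1.57 and Slc9a3 at 1.27 are the 3 filled diamonds, and the structural genes at the bottom lie close to 0.

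**Figure D4:**
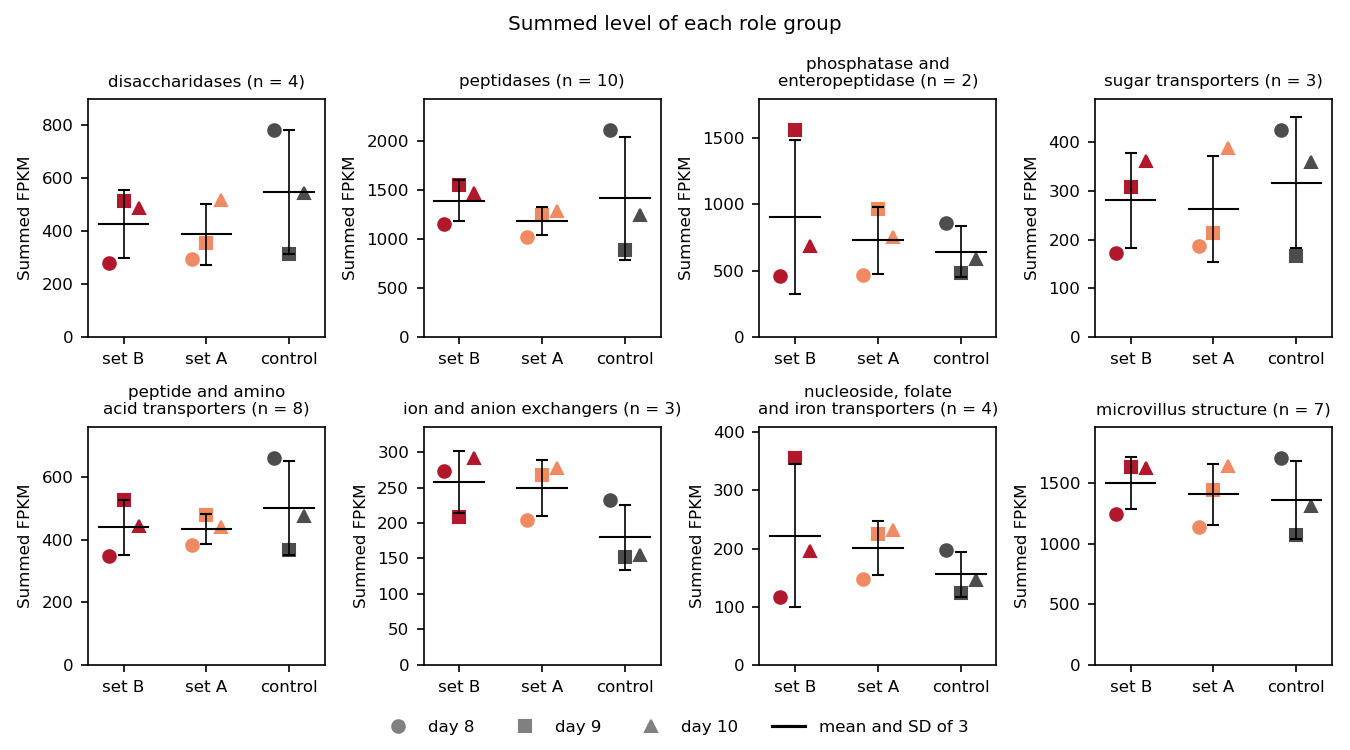
Summed FPKM of the genes of each role in every library, by group (set B, set A, control), with marker shapes for days 8, 9 and 10 and bars for the mean and SD of 3 libraries. The day-8 control is the highest control for each of the 8 roles, and the groups overlap in all of them.

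The order of the days differed between the mutants and control. In control, day 8 was the highest of the 3 libraries for 38 of the 41 genes and day 9 the lowest for 38, where 35.6% and 32.5% of all genes had those orders. The median ratio of day 8 to day 9 in control was 2.03 for the 41 genes and 0.996 for all genes tested. In the mutants day 8 was the lowest library for 30 of the 41 genes in set B and for 32 in set A, against 25.9% and 35.5% of all genes. Day 10 exceeded day 8 in both mutant sets for 31 of the 41, against 37.2% of all genes. These counts are descriptions, since the 41 genes share the same 9 libraries and each group has 1 library per day, so that day and library cannot be told apart.

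A slope over days common to the 3 groups was passed by 0 of the 41 genes in limma, as by 0.0% of all genes, and 1 of the 41 had an unadjusted p under 0.05 (Mep1a, −0.49 ± 0.20 per day), against 3.22% of all genes. Within the 6 mutant libraries alone 0 passed as well, with 0.0% of all genes, but 17 of the 41 had an unadjusted p under 0.05, against 5.89% of all genes, and all 17 slopes were positive. Sis had the smallest p among them, at 0.53 ± 0.05 per day on the log2 scale (limma, adjusted p = 0.362). Slc5a1 had 0.50 ± 0.07 per day and Slc2a5 0.58 ± 0.10 per day. Lct had −0.46 ± 0.93 per day. The difference in slope between mutants and control was not tested. The mutant fit took its 6 libraries as independent. Over all genes, same-day deviations of sets A and B correlated at −0.0178, 0.398 and 0.615 at days 8, 9 and 10. A change with time and an effect shared by the libraries of a day cannot be told apart, so these unadjusted p-values and standard errors may be too small.

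Each set was also set against the same 3 control libraries, and neither had a gene of the 41 that passed with all 9 libraries. For set B, 0 of 41 passed in limma where 0.628% of all genes did, and 4 had an unadjusted p under 0.05 against 16.5% of all genes. For set A, 0 of 41 passed where 0.215% of all genes did, and 3 had an unadjusted p under 0.05 against 16.7% of all genes. Lct differed from control by −2.56 ± 1.26 in set B (limma, adjusted p = 0.358) and by −2.82 ± 1.26 in set A (limma, adjusted p = 0.318). Slc9a3 differed by 1.19 ± 0.34 in set B (limma, adjusted p = 0.164) and by 0.98 ± 0.34 in set A (limma, adjusted p = 0.232). Without its day-9 library, set B passed for Lct (−4.09 ± 0.79, limma, adjusted p = 0.0421) and Slc9a3 (1.56 ± 0.26, limma, adjusted p = 0.0277), where 4.03% of all genes passed. With library weights Mme passed beside these 2 genes in set B (−1.64, limma, adjusted p = 0.0429), where 16.8% of all genes passed. In the unweighted fit without the set B day-9 library, set A had 0 of 41 in limma where 1.05% of all genes passed. That library does not belong to set A. In the same fit 6 of the 41 had an unadjusted p under 0.05 against 20.3% of all genes, and Lct did not pass (limma, adjusted p = 0.095). Set A had 5 genes outside the control range, Slc9a3, Slc11a2 and Slc40a1 above and Lct and Mme below, against 24.9% of all genes, and set B had 2, Slc7a8 and Slc1a1, both below, against 22.3%.

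Set B against set A is the test of the difference between the sets. None of the 41 genes passed (limma, 0 of 41, and 0.0% of all genes), and 0 of the 41 had an unadjusted p under 0.05, against 3.11% of all genes. The differences ran from −0.33 ± 0.22 for Slc1a1, an apical glutamate transporter, to 0.38 ± 0.62 for Mme. No gene of the 41 had separate ranges between the sets, where 6.23% of all genes did. The spread within set B, whose day-9 library was apart, limits this comparison, and the difference for Lct was 0.25 ± 1.26 with that library and −1.27 ± 0.79 without it.

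Further genes of the same surface were read from lists of enzymes, transporters, microvillus genes and regulators. With all 9 libraries none of the 7 tested further enzymes, 32 transporters, 15 microvillus genes and 14 regulators passed for both sets against control in limma, and 2, 7, 3 and 2 of them, in that order, had an unadjusted p under 0.05, against 21.0% of all genes. The 7 enzymes were all negative, with a median of −0.63, while the transporters divided into 16 positive and 16 negative with a median of −0.01. Without the set B day-9 library the enzyme median was −0.95, and 3 of 31 transporters rose and 4 fell, where 8.29% of all genes passed. Cybrd1, the duodenal ferric reductase that prepares iron for DMT1, was at 11.6, 61.7 and 31.6 FPKM in set B, 13.0, 30.5 and 17.2 FPKM in set A, and 3.53, 3.45 and 3.36 FPKM in control. All 6 mutants lay above all controls, and its log2 difference was 2.45 ± 0.47 with all libraries (limma, adjusted p = 0.0548) and 2.18 ± 0.36 without the one (limma, adjusted p = 0.0234). Slc28a1, a concentrative nucleoside transporter for pyrimidines, was at 0.55, 22.8 and 0.271 FPKM in set B, 3.34, 4.78 and 0.167 FPKM in set A, and 17.9, 10.1 and 20.7 FPKM in control. The set B day-9 value was above all controls and the other 5 mutants were below them. Slc28a1 fell by 3.0 ± 0.53 without the set B day-9 library (limma, adjusted p = 0.0263) and had −2.31 ± 0.96 with it (limma, adjusted p = 0.223).

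The other transporters that passed in that fit were Slc28a3 (0.75) and Slc52a3, a riboflavin transporter (0.69), which rose, and Slc5a4a (−2.58), Slc5a4b (−1.92) and Pdzk1, an apical scaffold (−1.15), which fell. Slc5a4a and Slc5a4b are paralogs whose reads can be shared, so their single values are uncertain. In the same fit, where 8.29% of all genes passed, Nt5e, the ectonucleotidase CD73, fell by 1.32 ± 0.20 as 1 of 7 enzymes (limma, adjusted p = 0.014), and Muc13, a transmembrane mucin, rose by 0.73 ± 0.15 as 1 of 15 microvillus genes (limma, adjusted p = 0.032). Akp3, a further intestinal alkaline phosphatase, was at 291, 3798 and 439 FPKM in set B, 522, 1104 and 370 FPKM in set A, and 1090, 497 and 645 FPKM in control, with its highest value in the library that was also highest for Alpi.

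Among the regulators, Hnf4a differed by −0.10 ± 0.09 (limma, adjusted p = 0.561). Cdx2 was at 188, 178 and 196 FPKM in set B, 126, 131 and 144 FPKM in set A, and 139, 114 and 108 FPKM in control, so the 3 libraries titled with the Cdx2 allele were above the other 6. It rose in set B against control with all 9 libraries (0.64 ± 0.10, limma, adjusted p = 0.0442). Its difference for both sets was 0.40 ± 0.09 (limma, adjusted p = 0.0746), and it rose by 0.42 ± 0.09 without the set B day-9 library (limma, adjusted p = 0.0401). Elf3, an epithelial transcription factor, also rose in that fit, by 0.44 ± 0.06 (limma, adjusted p = 0.0135).

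Genes tied to the switch at weaning had mixed signs. The suckling-stage list of Lct, Ass1, Fcgrt and Prdm1 had 1 negative difference, that of Lct, and 3 positive, and the adult-stage list of Sis, Treh, Arg2 and Akp3 had 0 positive and 4 negative, with medians of 0.17 and −0.43. None of either list passed with all 9 libraries in limma, and 2 of the 4 suckling-stage and 1 of the 4 adult-stage genes had an unadjusted p under 0.05, against 21.0% of all genes. Without the set B day-9 library the adult-stage median was −0.72.

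Markers of other cells were read in the same libraries. Of 9 Paneth cell genes 4 fell with all libraries (limma, adjusted p from 0.0264 to 0.0473), where 1.16% of all genes passed. They were Lyz1, Ang4, Defa24 and Defa30, the defensins being close paralogs. The Paneth list summed to 15167 to 35723 FPKM in the mutants and 55223 to 92475 FPKM in control. The 8 tested T cell genes were all negative, and in limma none passed and 1 had an unadjusted p under 0.05 (21.0% of all genes did), with list sums of 20.1 to 79.7 FPKM in the mutants and 55.9 to 96.6 FPKM in control and 2 of 10 genes under 1 FPKM in every library. The 8 fibroblast genes summed to 20.9 FPKM in the set B day-9 library, 3.76 to 14.4 FPKM in the other mutants and 6.61 to 7.62 FPKM in control, with 2 under 1 FPKM in every library. Goblet cell genes overlapped, at 7642 to 10314 FPKM in the mutants and 7902 to 10163 FPKM in control, and so did stem cell genes, at 782 to 1597 FPKM in the mutants and 1222 to 1397 FPKM in control. Macrophage genes summed to 16.2 to 30.2 FPKM in the mutants and 13.2 to 18.2 FPKM in control, and tuft cell genes to 8.07 to 34.7 FPKM in the mutants and 24.2 to 52.4 FPKM in control. Of 6 endothelial genes 5 were under 1 FPKM in every library and 1 was at 0 throughout. Without the set B day-9 library, where 8.29% of all genes passed, 6 of the 9 Paneth cell genes fell, Defa17 (−1.23) and the lipase gene Pnliprp2 (−3.19) beside the 4 above. In that fit Clca1 fell by 2.16 as 1 of 8 goblet cell genes, Cck by 0.95 as 1 of 9 enteroendocrine genes and Alox5 by 1.73 as 1 of 7 tuft cell genes, and Cd14 rose by 0.84 as 1 of 2 tested macrophage genes. Among the tuft cell genes all 7 were negative with an unadjusted p under 0.05, as were 4 of the 8 T cell genes, against 27.5% of all genes. In set A against control with all 9 libraries the enteroendocrine gene Ghrl fell by 0.82 (limma, adjusted p = 0.0364), where 0.215% of all genes passed. The part of these cells in the differences of Lct, Mme and Slc9a3 was not tested.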

How the data were processed

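Poly(A) RNA of epithelium was sequenced as paired ends, per the labels' protocols, in 9 libraries grouped by title. The values the authors deposited are FPKM, a unit read from the values themselves. Kallisto 0.46.1, DESeq2 1.40.1 and mm9 appear in the submitters' processing notes without their roles, and the annotation is not given in the sources used here. Whole counts were not used, and precision was judged from the estimate of 16.8 to 19.1 fragments per kilobase at 1 FPKM.

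Differences were fitted with limma 3.58.1 (R 4.3.3), taking log2(FPKM + 1) of the 12097 genes that reached 1 FPKM in 3 or more libraries, with group means over all 9 libraries and a moderated spread (trend and robust). Benjamini-Hochberg adjustment ran over all genes tested, with a threshold of 0.05. The 41 genes and all lists were chosen with earlier results of these data known. Of the 41 genes, values are given for Lct, Sis and Alpi, for each that passed and, by role, for the gene with the highest mean and that with the largest difference. Genes of the other lists are named where they passed, up to 3 per list and direction by adjusted p, and Cdx2 and Hnf4a in any case. All Paneth cell genes that fell are named. Slc7a8, Slc11a2, Pdzk1 and Akp3 were added after their values were seen. In 10 simulations with 200 of 12097 genes changed in both sets against control, 85% of log2 changes of 1 and 95.7% of those of 2 were found, and 5.55% of calls were false. The simulated noise was independent between genes and libraries, and no simulated library stood apart as the set B day-9 library did. These shares are averages over genes and do not tell how large a change of the 41 genes could be missed here. A further regulator is not reported here. Sequences are from RefSeq (GRCm38.p6). The alternatives were a pseudocount of 0.1, no filter, a filter of 5 FPKM, equal library totals, library weights, a day block, only the compared groups, and each library left out in turn.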

Additional observations from a re-analysis of the deposited data

Results flagged for a closer look

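Among the 6 mutant libraries, 6 of the 41 genes had 1 value far from the other 5, and in all 6 it was the set B day-9 library. It was the highest mutant for Lct at 98.1 FPKM (next 21.1 FPKM), Mme at 61.7 FPKM (next 24.9 FPKM), Slc6a19 at 69.1 FPKM (next 33.5 FPKM), Slc46a1 at 158 FPKM (next 72.7 FPKM) and Espn at 64.3 FPKM (next 32.2 FPKM). It was the lowest for Slc1a1, at 10.7 FPKM (next 19.3 FPKM). Chance marks about 1 in 20 groups this way, and the 41 genes share the same libraries. The share of all genes marked this way was not computed, so whether the 41 genes differ from other genes in this is not known. The same library had the male expression pattern and the highest fibroblast sum, and the part of either in these values was not tested.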

How the results depend on the processing

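Replicates 1, 2 and 3 of each group are its libraries of days 8, 9 and 10, so several fits here are those given above. For both sets against control, 2 of the 41 genes passed with library weights, where 11.9% of all genes did. Without set B replicate 2, 3 passed, where 8.29% of all genes did. For set B against control, 3 passed with library weights, where 16.8% of all genes did, and 2 without set B replicate 2, where 4.03% did. The range over the 9 fits that each left out a library was 0 to 3 for both sets and 0 to 2 for set B. The other 74 alternative counts over the 5 comparisons were 0, as with all libraries. Without control replicate 1 the differences of Mgam (0.15), Anpep (0.19) and Slc5a1 (0.10) turned positive. Slc46a1 turned negative with library weights (−0.27) and without control replicate 2 (−0.21), set A replicate 2 (−0.01) or set B replicate 2 (−0.29), and Vil1 without control replicate 2 (−0.07). Over the fits that each left out a library the differences ran from −0.46 to 0.15 for Mgam, −0.39 to 0.19 for Anpep, −0.53 to 0.10 for Slc5a1, −0.29 to 0.39 for Slc46a1 and −0.07 to 0.23 for Vil1. The cause was not tested. With equal library totals the all-gene calls were 133 higher and 36 lower, against 62 and 78. With the day as a replicate block 0 of the 41 passed for both sets, set A, set B or set B against set A, and 16 genes of all passed for set A, against 26. Deviations of libraries of the same day correlated from −0.236 to 0.0702 between control and either mutant set. Between sets A and B the correlations were −0.0178, 0.398 and 0.615 at days 8, 9 and 10. The main fit did not pair libraries by day. With 3 libraries a group, differences near the spread between control days cannot be resolved.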
